A study of Mus musculus with 6 samples.

Results

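The genes described here are the 10 genes of the NF-kB system that carry its subunits and its best known inhibitors: the subunit genes Rela, Rel, Relb, Nfkb1 and Nfkb2, the IkB genes Nfkbia, Nfkbib and Nfkbie, the ubiquitin-editing inhibitor gene Tnfaip3 and the kinase gene Ikbkb. They were taken by gene symbol from a table of 49315 Ensembl genes, and all 10 were found and had enough counts to be tested. The cells were bEND.3, an immortalized endothelial line from mouse brain, transfected by a lipid reagent of the Lipofectamine series with 1 of 2 antisense oligonucleotides at 100 nM. In 4 samples, named GapmeR, the oligonucleotide was an LNA GapmeR against Gm39822, a long non-coding RNA, and in 2 samples, named Negative Control, it was a control LNA GapmeR. Both groups therefore carried an LNA oligonucleotide and the transfection reagent, and untransfected cells were not analysed here. With 1 oligonucleotide against Gm39822, loss of Gm39822 cannot be told apart from other effects of that oligonucleotide. The labels do not say whether the samples came from separate cultures, so the p-values measure the spread between these samples, which may be technical. The question was how the transcripts of the NF-kB machinery differed after Gm39822 knockdown.

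NF-kB is a family of dimeric transcription factors that switch on inflammatory and survival genes, and in endothelial cells these include adhesion molecules and chemokines. In resting cells IkB proteins hold the dimers in the cytoplasm. The IKK complex, of which Ikbkb encodes a catalytic subunit, phosphorylates the IkB proteins and so marks them for destruction, and the freed dimers enter the nucleus. Among the genes that NF-kB then induces are several of its own parts, Nfkbia and Tnfaip3 among them, which close negative feedback loops. Rela, Rel and Relb encode subunits with an activation domain, whereas Nfkb1 and Nfkb2 encode precursors that are trimmed to subunits without one. The noncanonical arm of the pathway processes the Nfkb2 precursor and works through the kinase encoded by Map3k14, often called NIK.

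The sequences below are shown because several of these genes are targets of the factor they encode or restrain. In RefSeq promoter records (GRCm38.p6), 7 of the 10 genes had a promoter, with 10 start sites in all. Nfkb1, Relb and Ikbkb had no record there, so their promoters were not searched. Within 250 bases before the start, 7 of these 10 promoters held at least 1 match to the consensus kB decamer on either strand, against 7.3% of all 32851 promoters searched the same way. Nfkb2 and Tnfaip3 each have more than 1 of these promoters, so the 10 are not independent. The matches fell in 5 genes, Tnfaip3, Rel, Nfkbia, Nfkbie and Nfkb2, and the Rela and Nfkbib promoters held none. A share by gene over all promoters was not computed. Each window is printed on the strand of its gene with the match in capitals, overlapping matches on both strands being joined, and windows stop at the start site.
Tnfaip3, chr10:19015517-19015544, minus strand: actcacgcgGGGACACCCCggggcggga
Tnfaip3, chr10:19015411-19015431, minus strand: atttccatcGGAAATCCCCct
Rel, chr11:23771042-23771070, minus strand: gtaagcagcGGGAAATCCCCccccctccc
Nfkbia, chr12:55492658-55492685, minus strand: gactggcttGGAAATTCCCcgcgcctga
Nfkbie, chr17:45555585-45555612, plus strand: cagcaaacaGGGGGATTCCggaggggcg
Nfkb2, chr19:46304689-46304717, plus strand: gatcgtcacGGGAATTCCCCccctcgggg
Nfkb2, chr19:46304717-46304736, plus strand: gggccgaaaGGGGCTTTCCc
Nfkb2, chr19:46305450-46305477, plus strand: ccgacggcaGGAATGTCCCcacaaaagc
Nfkb2, chr19:46305696-46305723, plus strand: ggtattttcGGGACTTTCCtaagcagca
The match nearest a start was the last one before the first Nfkb2 start, 2 to 11 bases upstream of it, and the Nfkbia match lay 20 to 29 bases upstream. A match of letters describes the promoter and does not show that a subunit was bound there.

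Total counts were between 29261988 and 37117934 per sample. The targeted RNA checked the labels: Gm39822 had 2, 1, 4 and 2 counts after knockdown and 61 and 56 in the controls, a log2 fold change of -4.82 ± 0.41 (SE). Endothelial markers (12 genes, Pecam1 and Cdh5 among them) summed to between 6870 and 7765 CPM (counts scaled to a common library size) after knockdown and to 8043 and 8308 in the controls, and 1 of the 12 rose and 7 fell. Macrophage markers (10 genes, none at 0 in all samples) summed to 230, 216, 354 and 395 CPM in GapmeR 1 to 4 and to 162 and 156 in the controls, with 3 of the 10 passing the test as higher. Pericyte and smooth muscle markers (6 genes, 2 higher) summed to 8.59 to 13.0 CPM against 1.78 and 1.85, and astrocyte markers (4 genes, 2 lower) to 2.06 to 3.83 CPM against 5.43 and 5.78, none of them at 0 in all samples. Beside these counts, 25.4% of all tested genes were called higher and 20.0% lower by the same test, described below. The part of these marker genes in the results that follow was not tested, and in bulk RNA fewer cells of a type cannot be told apart from less RNA per cell. GapmeR 2 stood apart from its group, since the chi-square of its counts against the other GapmeR samples was 18.6 to 25.3 per degree of freedom, while the other GapmeR pairs gave 5.42 to 10.7.

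After Gm39822 knockdown the transcripts of the NF-kB machinery differed from the controls in both directions and by small amounts. Of the 10 genes, Tnfaip3 and Nfkb1 rose, Nfkb2 and Nfkbie fell, and the other 6 did not pass the test (edgeR's quasi-likelihood test, Benjamini-Hochberg adjusted p below 0.05 over 18234 genes). Calls were common in this comparison, with 45.3% of all tested genes called, 25.4% higher and 20.0% lower, so 4 of 10 is close to the share among all genes. The median log2 fold change of the 10 genes was -0.06 and that of all tested genes was 0.03. None of the 10 reached a 1.5-fold change with an adjusted p below 0.05, whereas 25.4% of all tested genes did. In 6 of the 10 genes the CPM of the 2 groups did not overlap, 2 with the GapmeR samples above and 4 with them below. Among all tested genes 59.2% showed no overlap, and 31.9% had the GapmeR samples above. The plot by sample shows each of these values, in CPM scaled by the trimmed mean of M values (TMM), the scale of all CPM below.

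**Figure D1:**
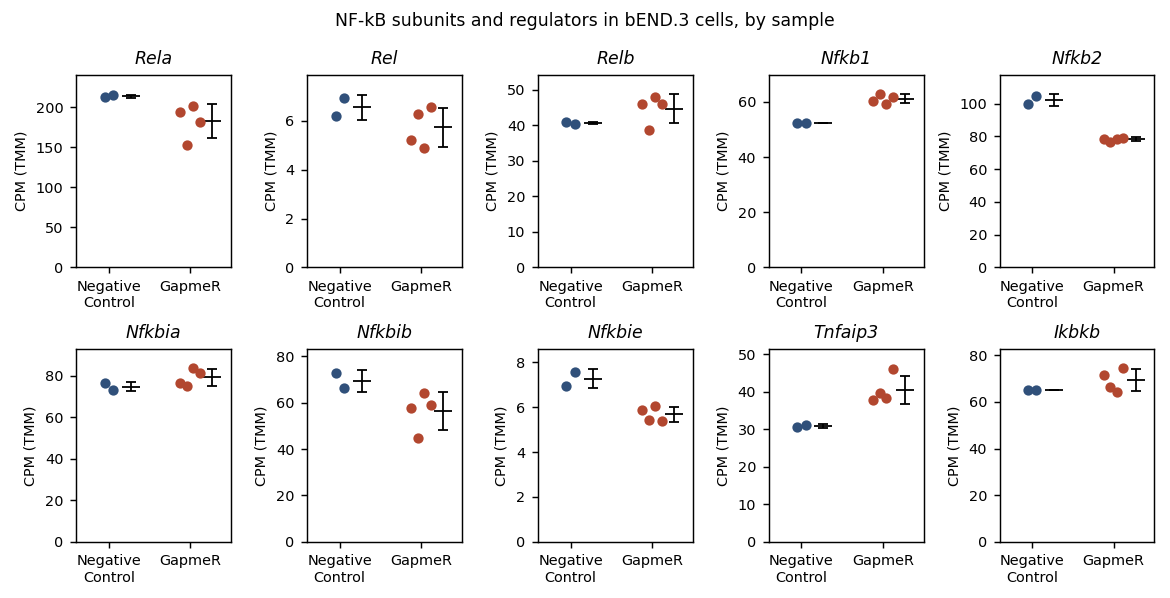
TMM-scaled CPM of the 10 genes, one panel per gene with its own axis from 0; blue points are the 2 Negative Control samples, red points the 4 GapmeR samples, and the bars beside them the mean ± SD. Nfkb2 fell from a control mean of 102 to 78.2 CPM with 4 tightly grouped GapmeR samples, while in Rela and Nfkbib 1 of the 4 GapmeR samples lies well below the others.

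The precursor genes Nfkb1 and Nfkb2 moved in opposite directions. Nfkb1 (chr3:135584655-135691969, minus strand) measured 60.2, 63.0, 59.3 and 61.8 CPM in GapmeR 1 to 4 and 52.3 and 52.3 CPM in the controls. All 4 GapmeR samples were above both controls, and Nfkb1 was 1.17-fold higher (log2 fold change 0.22 ± 0.07 SE, adjusted p = 0.015). Nfkb2 (chr19:46300994-46312400, plus strand) measured 78.6, 76.4, 78.6 and 79.1 CPM after knockdown and 99.6 and 105 CPM in the controls. It was 1.31-fold lower (log2 fold change -0.39 ± 0.07, adjusted p = 0.00019), with the groups well separated and the GapmeR samples closely grouped. Of the 7 genes with a promoter searched, Nfkb2 had the most kB matches, 4 over its 3 start sites, and also the most start sites. Nfkb1 was not among the genes searched, so the matches do not compare the 2 precursor genes.

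The count of Nfkb2 carries a limit from its position. Its exons share 24.5% of their bases with exons of Psd, a protein-coding gene on the opposite strand, and whether the counting used strand is not given in the sources used here. Psd had 982, 990, 994 and 966 counts after knockdown and 347 and 437 in the controls, and rose 2.20-fold. Exons of the opposite-strand lncRNA 4833438C02Rik, not analysed here, cover 13.7% of the Nfkb2 exon bases. Psd moved opposite to Nfkb2. If the counting did not use strand, reads in the shared bases could not be assigned to either gene.

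Within each sample the ratio of Nfkb2 to Nfkb1 counts needs no scaling between libraries, and it gave the largest of the 8 ratio differences computed. The ratio was 1.31, 1.21, 1.33 and 1.28 in GapmeR 1 to 4 and 1.90 and 2.00 in the controls. The means were 1.28 ± 0.05 (SD, n = 4) and 1.95 ± 0.07 (SD, n = 2), a 1.52-fold lower ratio with no overlap between the groups. The two-sided exact permutation p was 0.0667, which is the smallest that 15 splits of 4 against 2 samples allow, and 0.178 after adjustment over the 8 ratios. No ratio in this design could therefore pass 0.05.

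Rela, which encodes the main activating subunit of the canonical arm, did not pass the test. Rela (chr19:5637442-5648134, plus strand) measured 194, 153, 202 and 182 CPM after knockdown and 212 and 215 CPM in the controls. Every GapmeR sample was below both controls, but GapmeR 2 was far below the other 3, and the log2 fold change of -0.23 ± 0.09 (95% interval -0.43 to -0.03) had an adjusted p of 0.062. Rela passed in 3 of 13 alternatives, and its log2 fold change shrank to -0.15 without GapmeR 2 and to -0.08 (adjusted p = 0.50) when libraries were scaled by size alone.

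Relb and Rel also did not pass. Relb (chr7:19606217-19629438, minus strand), the partner of the processed Nfkb2 product in the noncanonical arm, measured 46.0, 38.6, 47.9 and 46.1 CPM in GapmeR 1 to 4 and 40.7 and 40.3 CPM in the controls. Of its 4 GapmeR samples 3 were above both controls and GapmeR 2 was below them (log2 fold change 0.14, 95% interval -0.05 to 0.33, adjusted p = 0.22). Without GapmeR 2 Relb passed, at a log2 fold change of 0.21 and an adjusted p of 0.015. Rel (chr11:23736847-23770969, minus strand), best known from lymphoid cells, was low, at 4.90 to 6.56 CPM after knockdown and 6.21 and 6.93 CPM in the controls, with overlapping groups (log2 fold change -0.19, 95% interval -0.51 to 0.12, adjusted p = 0.30).

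Set against Rela within each sample, Relb counts separated the groups. The Relb to Rela ratio was 0.237, 0.251, 0.237 and 0.253 in GapmeR 1 to 4 and 0.192 and 0.187 in the controls, 1.29-fold higher (exact permutation p = 0.0667, adjusted p = 0.178). GapmeR 2 lay within its group in this ratio, although it was the lowest GapmeR sample for both genes. Rel to Rela did not separate the groups, at 0.032 ± 0.0078 (SD, n = 4) and 0.0307 ± 0.0021 (SD, n = 2; exact permutation p = 0.867).

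**Figure D2:**
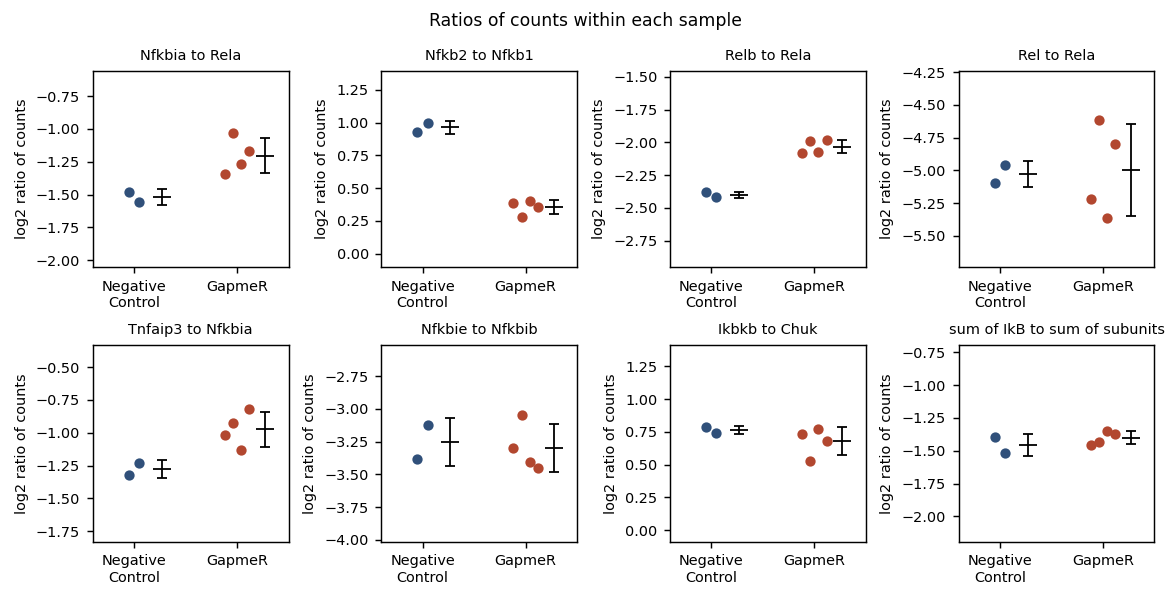
Log2 ratios of raw counts within each sample for the 8 ratios computed, with 2 Negative Control samples (blue), 4 GapmeR samples (red) and mean ± SD beside them; every panel spans the same 1.5 log2 units. Nfkb2 to Nfkb1 is lower in all 4 GapmeR samples, Relb to Rela, Nfkbia to Rela and Tnfaip3 to Nfkbia are higher in all 4, and the other 4 ratios overlap.

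Of the 3 IkB genes Nfkbie fell, and Nfkbib and Nfkbia did not pass the test. Nfkbie and Nfkbib were not shown to differ from each other, since the ratio of their counts was 0.102 ± 0.013 (SD, n = 4) after knockdown and 0.105 ± 0.013 (SD, n = 2) in the controls, with overlapping groups (exact permutation p = 0.867). Nfkbie (chr17:45555700-45563169, plus strand), which encodes IkB epsilon, measured 5.87, 5.42, 6.06 and 5.39 CPM after knockdown and 6.97 and 7.58 CPM in the controls. The groups did not overlap, and Nfkbie was 1.28-fold lower (log2 fold change -0.36 ± 0.13 SE, adjusted p = 0.032). The call rests on 174 to 242 counts per sample and held in 5 of 13 alternative analyses, with the adjusted p reaching 0.26 without Negative Control 2.

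Nfkbib (chr7:28758251-28766644, minus strand), which encodes IkB beta, measured 57.7, 44.8, 64.2 and 58.8 CPM after knockdown and 72.8 and 66.1 CPM in the controls. All 4 GapmeR samples were below both controls, with GapmeR 2 again the lowest, and the log2 fold change of -0.30 ± 0.12 (95% interval -0.56 to -0.04) had an adjusted p of 0.055. It passed in 6 of 13 alternatives, DESeq2 among them (adjusted p = 0.037). On the opposite strand, exons of Nfkbib overlap those of the lncRNA Gm71901 (14.3% of its exon bases, not analysed here), of Ccer2 (13.3%) and of Sirt2 (1.78%). Ccer2 had only 3 to 13 counts per sample, and Sirt2 had 2924 to 3888.

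Nfkbia (chr12:55489409-55492647, minus strand), the fast feedback inhibitor IkB alpha, had overlapping groups, at 76.6, 74.9, 83.9 and 81.1 CPM after knockdown and 76.3 and 73.1 CPM in the controls (log2 fold change 0.08, 95% interval -0.07 to 0.24, adjusted p = 0.38). The interval leaves out a change as large as that of Nfkb2 in either direction. GapmeR 3 and GapmeR 4, which had the most Nfkbia, also had the highest summed macrophage markers given above, and the part of those cells or transcripts in Nfkbia was not tested. The ratio of Nfkbia to Rela was 0.394, 0.488, 0.416 and 0.445 in GapmeR 1 to 4 and 0.359 and 0.339 in the controls, 1.24-fold higher with no overlap (exact permutation p = 0.0667, adjusted p = 0.178). The counts of the 3 IkB genes summed to 0.379 ± 0.013 (SD, n = 4) of the counts of the 5 subunit genes after knockdown and to 0.365 ± 0.021 (SD, n = 2) in the controls, with overlapping groups (exact permutation p = 0.333).

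Tnfaip3, which encodes a ubiquitin-editing enzyme that shuts down signaling to IKK, rose. Tnfaip3 (chr10:19000910-19015410, minus strand) measured 37.7, 39.5, 38.4 and 46.0 CPM in GapmeR 1 to 4 and 30.5 and 31.2 CPM in the controls. All 4 GapmeR samples were above both controls, GapmeR 4 the furthest, and Tnfaip3 was 1.31-fold higher (log2 fold change 0.39 ± 0.09 SE, adjusted p = 0.0021). Tnfaip3 and Nfkb2 were the only 2 of the 10 genes called in all 13 alternative analyses without a fold threshold. Neither reached a 1.5-fold change. Against Nfkbia, the other feedback inhibitor, Tnfaip3 was 1.23-fold higher within samples, with ratios of 0.457 to 0.567 after knockdown and 0.400 and 0.426 in the controls (exact permutation p = 0.133, adjusted p = 0.267).

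Ikbkb (chr8:22659205-22706589, minus strand) did not pass, at 71.7, 66.6, 64.4 and 74.8 CPM after knockdown and 65.3 and 65.3 CPM in the controls. One GapmeR sample was below the controls and 3 were above (log2 fold change 0.09, 95% interval -0.07 to 0.25, adjusted p = 0.37). Its ratio to Chuk, the gene of the other catalytic IKK subunit, was 1.61 ± 0.12 (SD, n = 4) after knockdown and 1.70 ± 0.04 (SD, n = 2) in the controls, with overlapping groups (exact permutation p = 0.40).

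The size of these changes, and some of the calls, depended on scaling. The TMM factor was 0.931 and 0.936 for the controls and 1.02 to 1.05 for the GapmeR libraries, and scaling by library size alone raised the median log2 fold change of all genes by 0.15. Under library size alone the sign of each of the 10 genes stayed the same, but Relb, Nfkbia and Ikbkb passed as higher, Nfkbie no longer passed and Rela was at -0.08 (adjusted p = 0.50). The 10 genes then counted 5 higher and 1 lower in place of 2 and 2, beside 45.2% of all tested genes called, 33.5% higher and 11.7% lower. DESeq2 called 2 of the 10 higher and 2 lower, with Nfkbib called in place of Nfkbie (adjusted p = 0.067), beside 41.0% of all tested genes called. The plot of fold changes sets the 2 scalings side by side.

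**Figure D3:**
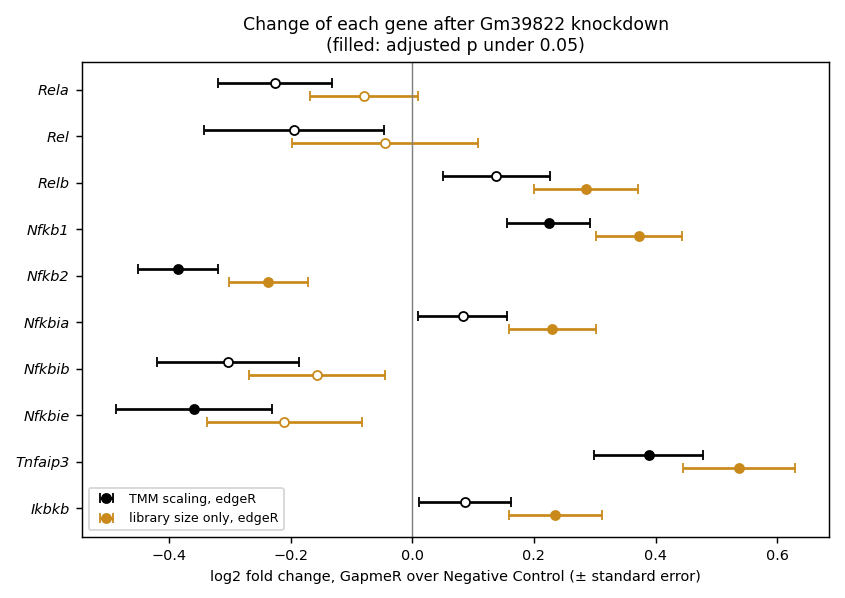
Log2 fold change, GapmeR over Negative Control, of the 10 genes with its standard error, under TMM scaling (black) and library size alone (orange); filled points had an adjusted p below 0.05 in edgeR's quasi-likelihood test. Nfkb1, Nfkb2 and Tnfaip3 are filled under both scalings, and every orange point lies to the right of its black one.

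Levels were compared between genes per kb of the Ensembl canonical transcript, in CPM per kb. The order of genes, and any change of it between the groups, depends on this length. Canonical transcripts were 6754 bases for Nfkb2, 3394 for Relb and 4704 for Nfkb1, and all exons together 7901, 5085 and 12848. For Nfkbia and Nfkbib they were 1578 and 1369 bases, and all exons together 1937 and 2359. Ikbkb had the widest gap of the 10 genes, at 3591 bases for the canonical transcript and 24325 for all exons. Levels by the length of all exons were not computed. In the controls Rela was highest at 78.7 ± 0.8 (SD, n = 2), followed by Nfkbib at 50.8 ± 3.5 and Nfkbia at 47.4 ± 1.4, whose samples overlapped. Ikbkb (18.2), Nfkb2 (15.1), Relb (11.9) and Nfkb1 (11.1) followed, and Tnfaip3 (4.47), Nfkbie (2.96) and Rel (0.846) were lowest. After knockdown Rela was still highest at 67.4 ± 7.8 (SD, n = 4), with Nfkbia at 50.1 ± 2.6 now above Nfkbib at 41.2 ± 6.0, and these samples did not overlap. Among Nfkb2, Relb and Nfkb1, Nfkb2 had the highest mean in the controls and the lowest after knockdown, at 11.6 ± 0.2 CPM per kb against 13.2 ± 1.2 for Relb and 13.0 ± 0.4 for Nfkb1, although GapmeR 2 had Relb within the Nfkb2 range. Relb and Nfkb1 overlapped.

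Taken as a pool of subunit transcripts, Rela made up 66.9% ± 0.1 (SD, n = 2) of the counts per kb in the controls and 63.5% ± 2.3 (SD, n = 4) after knockdown. The share of Nfkb1 was 9.44% ± 0.11 in the controls and 12.4% ± 1.4 after knockdown, and that of Relb 10.1% ± 0.2 and 12.4% ± 0.3. Nfkb2 went the other way, from 12.8% ± 0.3 to 11.0% ± 0.8, and Rel stayed below 1% in every sample. In the pool of IkB transcripts Nfkbia made up 46.9% ± 0.8 of the counts per kb in the controls and 53.7% ± 2.7 after knockdown, with no overlap, and Nfkbib 50.2% ± 1.1 and 43.8% ± 2.8. Nfkbie was a small share, 2.94% ± 0.31 and 2.48% ± 0.18. These shares are given as descriptions and were not tested, and which gene holds the larger share depends on the transcript length used.

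**Figure D4:**
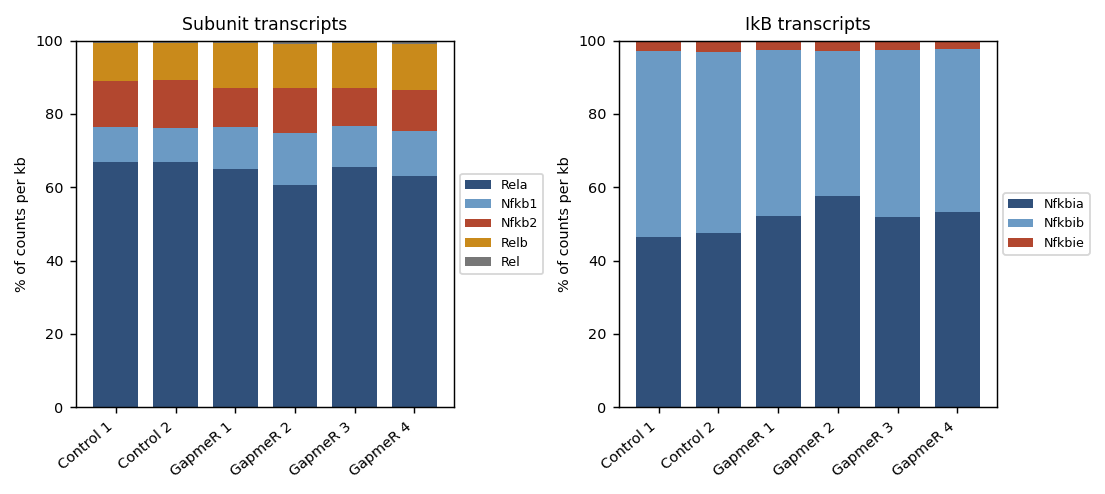
Share of each gene, in percent of counts per kb of canonical transcript, among the 5 subunit genes (left) and the 3 IkB genes (right), one stacked bar per sample. By this length Rela holds 60.5% to 66.9% of subunit transcripts in every sample. Nfkbia holds the larger IkB share in all 4 GapmeR samples and Nfkbib in both controls, an order that depends on the length used.

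Around these 10 genes, the kinases Map3k14 and Ikbke were both more than 2-fold higher after knockdown. Map3k14, which encodes NIK, measured 18.2, 15.5, 16.7 and 19.5 CPM after knockdown and 7.45 and 7.27 CPM in the controls, 2.37-fold higher (log2 fold change 1.25 ± 0.12 SE, adjusted p = 3e-07). Ikbke, which encodes an IKK-related kinase, measured 7.91, 7.73, 7.67 and 9.26 CPM and 3.72 and 3.54 CPM, 2.24-fold higher (1.16 ± 0.14, adjusted p = 6.6e-06). Both genes had every GapmeR sample above both controls, while Nfkb2, whose product NIK signaling processes, fell. Tab1, a partner of the kinase TAK, was 1.70-fold higher, and Tab2 and Map3k3 fell by 0.21 and 0.30 on the log2 scale. Among all tested genes 25.4% were called higher and 20.0% lower. Of the 10 genes of the IKK complex and its upstream kinases, Ikbkb left out, 3 rose, 2 fell and 5 did not pass. Their median log2 fold change was 0.06. Chuk (0.17, adjusted p = 0.12) and Ikbkg (-0.17, adjusted p = 0.051), which complete the IKK complex with Ikbkb, were among those that did not pass.

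Among 4 further genes of the IkB family, most of them nuclear, 3 were called. Nfkbid rose 2.62-fold from a low level (1.15, 1.28, 1.35 and 1.33 CPM against 0.365 and 0.595, adjusted p = 0.0018). Nfkbiz, which encodes IkB zeta, rose 1.59-fold, at 51.9, 59.7, 50.8 and 59.5 CPM against 37.1 and 32.9 (adjusted p = 1.8e-05). Bcl3, a nuclear partner of the trimmed precursor subunits, fell 1.44-fold, at 6.14 to 8.17 CPM against 10.2 and 10.4 (adjusted p = 0.0033). Of these 4 genes 2 rose, 1 fell and 1 did not pass (median log2 fold change 0.29), beside 45.3% of all tested genes called.

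The list of adaptors and ubiquitin ligases that carry signals to IKK held 17 genes, with a median log2 fold change of -0.01. Of these 2 rose, 2 fell and 13 did not pass, beside 45.3% of all tested genes called. The 2 that fell act together below Toll-like and interleukin 1 receptors: Myd88, at 66.2 ± 3.4 (SD, n = 4) against 98.8 ± 8.3 CPM (SD, n = 2), was 1.49-fold lower (adjusted p = 1.2e-05), and Irak4 was 1.53-fold lower (adjusted p = 4.5e-05). Traf3 and Birc3, which restrain NIK by marking it for degradation, rose 1.23-fold (adjusted p = 0.0071) and 1.21-fold (adjusted p = 0.034). Among 12 further inhibitors of the pathway, 11 had enough counts, with a median of -0.07. Of the 11, 3 rose, 1 fell and 7 did not pass, beside the same 45.3% of all tested genes called. Zc3h12a, which encodes an RNase that degrades inflammatory messages, rose 1.31-fold (adjusted p = 0.038), Tax1bp1, a cofactor of the Tnfaip3 product, rose 1.27-fold (adjusted p = 0.00084), and Commd1 rose 1.18-fold (adjusted p = 0.023). Tnip2, another binding partner of the Tnfaip3 product, fell 1.45-fold (adjusted p = 7.8e-05). Tnip3 had 0 to 5 counts and was not tested.

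Target genes of NF-kB outside the 10 spread widely, with log2 fold changes from -1.77 to 1.94. Of 32 listed, 25 had enough counts, and 3 rose, 15 fell and 7 did not pass. Over all tested genes 25.4% were called higher and 20.0% lower. The median log2 fold change of the targets was -0.58 against 0.03 over all tested genes. This list was drawn up with earlier results of these data known and is not independent evidence of its direction. The called targets at the lower end were Gadd45b, a stress response gene, 3.41-fold lower (adjusted p = 1.6e-10), Selp, the endothelial adhesion molecule P-selectin, 3.40-fold lower (adjusted p = 1.5e-11), and the chemokine gene Ccl7, 2.78-fold lower on 16 to 55 counts (adjusted p = 0.00071). At the upper end were Csf3, a granulocyte growth factor gene with 12 to 27 counts after knockdown and 1 and 9 in the controls (3.84-fold, adjusted p = 0.0093), Traf1, an adaptor gene (2.86-fold, adjusted p = 1e-05), and Nos2, which encodes inducible nitric oxide synthase (2.18-fold, adjusted p = 0.00075). The 7 targets without enough counts, Cxcl5, Ccl20, Il1b, Tnf, Csf2, Ptx3 and Mmp9, had at most 9 counts in any sample.

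**Figure D5:**
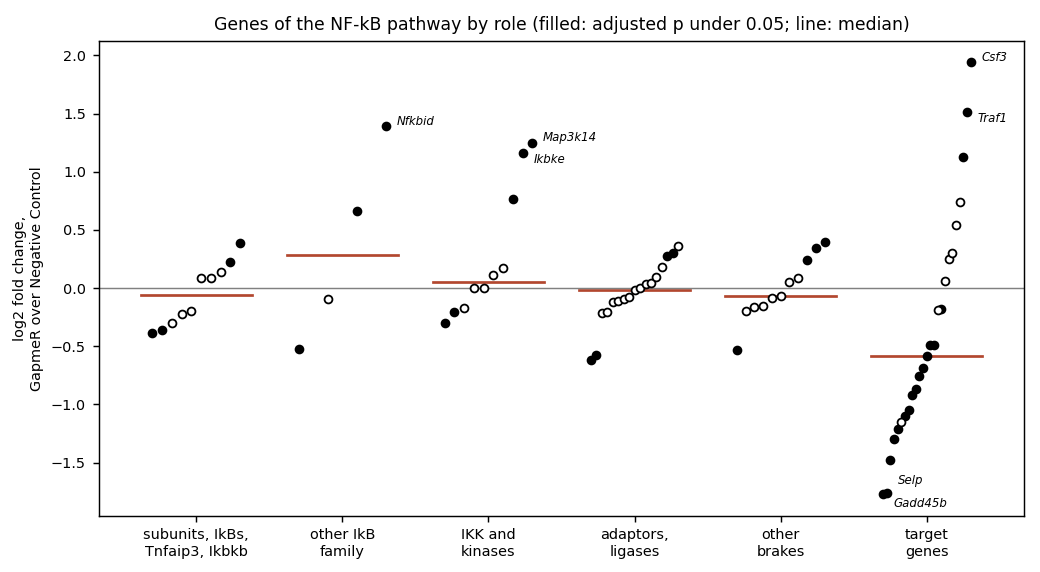
Log2 fold change, GapmeR over Negative Control, of each tested gene by its role in the pathway; filled points had an adjusted p below 0.05, open points did not, and red lines are list medians. The 10 genes of the first column stay within -0.39 to 0.39, the kinases Map3k14 and Ikbke stand above 1, and the target genes spread from -1.77 to 1.94.

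The genes whose log2 CPM followed Nfkbia and Rela most closely over the 6 samples were Nlrp3 (Pearson r = 0.999), Cd300ld (0.993) and Ppfibp2 (0.993) for Nfkbia and Txnrd3, Nmt1 and Por (each 0.994) for Rela. These are the highest of 18234 values over 6 points that share the group difference, and they are given as a description. The 3 genes nearest Nfkbia were low, at means of 0.405, 1.49 and 0.312 CPM after knockdown, whereas the 3 nearest Rela had means of 5.88, 196 and 488 CPM.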

How the data were processed

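RNA from bEND.3 cells was ribodepleted before paired-end sequencing. Per the methods, the authors ran the bcbio-nextgen pipeline with alignment by STAR to mm10. The submitters' processing notes name Trimmomatic 0.36, STAR 2.5.2b and Subread 1.5.2. The deposited values are whole-number counts per Ensembl gene, not normalized, for 49315 genes; the strand setting is not given in the sources used here. Total counts per sample were 29261988 to 37117934. Samples were grouped by title into 4 GapmeR and 2 Negative Control samples. The paper states 4 samples in each group, more controls than the labels gave. Another 1 per-sample column was left out of all steps.

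Testing covered the 18234 genes whose counts reached 5 in 2 or more samples, with edgeR 4.0.16 in R 4.3.3 (TMM, robust quasi-likelihood fit, Benjamini-Hochberg adjustment, threshold 0.05). Standard errors and 95% intervals come from that fit. Scripts were tested on simulated data. Alternatives were DESeq2 1.42.0, limma-voom 3.58.1, other scalings and filters, a 1.5-fold threshold, a replicate block and leaving out each sample. Ratios of counts were compared with two-sided exact permutation tests. Named genes were the 10 members, the called genes with the 3 highest and 3 lowest log2 fold changes of each pathway list, and the 3 genes most correlated with Nfkbia and with Rela. Chuk, Ikbkg and Psd, and genes below the count filter, were added after their values were seen. Members and lists were chosen with earlier results of these data known. Promoters and coordinates are from RefSeq (GRCm38.p6); transcript lengths and exon overlaps are from GENCODE vM39.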

Additional observations from a re-analysis of the deposited data

How the results depend on the processing

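Over the 13 alternative analyses of fold changes, each of the 10 genes kept its sign. Nfkb2 and Tnfaip3 passed in all 13, Nfkb1 in 11, Nfkbib in 6, Nfkbie in 5, Rela in 3, Relb in 2, Nfkbia and Ikbkb in 1 and Rel in none. Leaving out 1 sample at a time gave 2 to 6 genes called, 1 to 3 higher and 1 to 4 lower, beside 41.7% to 48.9% of all tested genes without 1 GapmeR sample and 32.0% and 29.0% without Negative Control 1 and 2. Without Negative Control 1 or 2 there were 2 (1 higher, 1 lower), since Nfkb1 was then at 0.24 and 0.24 (adjusted p = 0.072 and 0.076) and Nfkbie at -0.40 and -0.27 (0.089 and 0.26), with Rela at an adjusted p of 0.24 and 0.30. With 1 control left, its spread was taken to equal that of the GapmeR samples. Without GapmeR 3 there were 4 lower genes (Rela -0.25, Nfkbib -0.35), and without GapmeR 4 there was 1 (Nfkbie -0.33, adjusted p = 0.068). Leave-one-out ranges of the log2 fold change were 0.21 to 0.26 for Nfkb1, -0.25 to -0.15 for Rela, 0.12 to 0.21 for Relb, -0.35 to -0.20 for Nfkbib and -0.40 to -0.27 for Nfkbie, and those of calls were 3 to 6 for kinases, 2 to 7 for adaptors and 2 to 4 for further inhibitors.

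Library size alone gave Relb 0.29, Nfkbia 0.23, Ikbkb 0.24, Nfkbie -0.21 and Rela -0.08 (adjusted p = 0.50). It left 5 genes higher, 1 lower and 9 adaptors called, beside 45.2% of all tested genes. DESeq2 gave Nfkbib -0.30 (adjusted p = 0.037, called) and Nfkbie -0.35 (0.067, call lost), and limma-voom gave Nfkbib -0.31. With no filter Rela was at -0.23, Nfkbib at -0.31 and Nfkbie at -0.36 (adjusted p = 0.014, 0.00069 and 0.051). That setting called 5 of the 10 genes, beside 30.6% of all tested genes. With at least 10 counts in every sample Nfkbie was at -0.31 (adjusted p = 0.055). There 3 of the 10 genes were called, 2 higher and 1 lower, beside 46.3% of all tested genes. Requiring a 1.5-fold change left 0 of the 10 genes in either direction (4 passed without it by edgeR, and 4 by DESeq2 with Nfkbib in place of Nfkbie). It left 3 kinases, 1 adaptor and 0 further inhibitors, beside 25.4% of all tested genes. The cause of these shifts was not tested. Deviations of same-numbered samples from their group means had correlations of -0.11 and 0.17 over 8870 genes. With 2 controls, the deviations of 1 mirror those of the other, so these values cannot decide whether the samples were paired. With the replicate block, which rests on GapmeR 1 and 2 and both controls, 5 genes were called beside 42.8% of all tested genes, with Rela at -0.29, Nfkbib at -0.43 and Nfkbie at -0.35 (adjusted p = 0.015, 3.5e-05 and 0.060). Gm39822 could not be fitted with at least 10 counts in every sample or without 1 control. The 2 controls limit every comparison.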
